A study of Mus musculus with 27 samples.

Results

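The respiratory chain is built from 5 protein complexes of the inner mitochondrial membrane, and its genes lie in 2 genomes. Members were chosen by mouse gene symbol: the Nduf genes of complex I (names beginning Ndufa, Ndufb, Ndufc, Ndufs or Ndufv), Sdha to Sdhd of complex II, the Uqcr genes of complex III, Cox4 to Cox8 genes of complex IV, Atp5 genes of complex V, and the protein-coding genes of mitochondrial DNA, without symbols that carry -ps. This gave 110 of the 51826 gene identifiers, 97 in the nucleus and 13 in mitochondrial DNA. The 27 livers came from wildtype BALB/c mice, an inbred laboratory strain, and each gave 1 bulk RNA-seq library. They comprised 4 nulliparous mice that had not been bred (NUL), 3 mice at day 10 of lactation (LAC), 3, 4, 6 and 3 mice at days 2, 4, 6 and 8 after weaning, called involution days in the labels (ID2, ID4, ID6 and ID8), and 4 mice at 4 weeks after weaning, called regressed (REG). Breeding began when the parous mice were 10 to 12 weeks old, litters were evened in size, and the post-weaning groups lost their pups after 10 to 14 days of nursing. Mice were matched for age, and each liver was frozen whole and ground to powder. Replicates are separate animals by their titles. Their p-values measure the spread between these animals only.

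Complexes I and II pass electrons from NADH and succinate to ubiquinone, complex III passes them on to cytochrome c, and complex IV hands them to oxygen. Complexes I, III and IV pump protons while they do so, and complex V, the ATP synthase, uses the returning protons to make ATP. Complex II is encoded in the nucleus alone. Each of the other complexes joins nuclear subunits to subunits made inside the mitochondrion from its own DNA, whose genes are copied as long transcripts and then cut apart. The liver relies on this chain for the costs of gluconeogenesis, urea formation and lipid handling.

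Library totals ran from 41120650 (ID8_101b) to 75664540 (ID6_230) expected counts, and 16 libraries joined reads of several lanes or sequencers, per a deposited note. Libraries are named by group and animal number. Hepatocyte markers were present in every library, with all 8 of 8 found and a summed level of 94966 to 233338 CPM (reads relative to the TMM-scaled library total). In LAC they summed to 187762 to 233338 CPM, against 99911 to 128913 CPM in NUL. Alb, the albumin gene, made this difference, at 159800 to 203208 CPM in LAC and 74654 to 98164 in NUL. The other 7 markers summed to 27962 to 30130 CPM in LAC and 25257 to 31026 in NUL and overlapped. Pancreatic acinar markers summed to 1943 CPM in ID2_31 and to 152 CPM or less elsewhere, and their part in the ID2 results was not tested. Estimated fragments were under 250 bases in 6 libraries: LAC_213, ID4_215, ID6_201, ID6_209 and ID6_216, and ID8_101b. ID4_215, at 249.8 bases, and NUL_227, at 251.7, lay close to this limit on either side. The other NUL libraries were at 263.8 to 269.0 bases. All 3 ID8 animals carry title numbers under 200, as do 2 of 3 in ID2 and 2 of 4 in ID4 and none elsewhere. A fit with that number range as a covariate draws its effect from ID2 and ID4, and in it the median log2 fold change of nuclear members in ID8 against NUL was 0.26, in place of 0.11. Without ID8_101b that median was 0.03, and with only libraries of 250 bases or more it was 0.02. Of 90 nuclear members 80 were positive in the main fit, and 56 and 49 in these 2 fits. In whole liver, fewer cells of a type and less RNA per cell cannot be told apart.

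The summed levels of the nuclear members and of the mitochondrial-genome members each overlapped NUL at every stage. The mitochondrial-genome members spread more widely between libraries. The 97 nuclear members together made 12489 ± 802 CPM in NUL (SD, n = 4), 13334 ± 752 in LAC (n = 3), 12901 ± 353 in ID2 (n = 3), 12597 ± 1029 in ID4 (n = 4), 12107 ± 963 in ID6 (n = 6), 13512 ± 1418 in ID8 (n = 3) and 13292 ± 530 in REG (n = 4). The NUL libraries ran from 11516 to 13415 CPM. The order of the nuclear sums depended on the scale. In LAC and NUL they were 29511 ± 559 and 30711 ± 2376 TPM, and 1.22 ± 0.0337% and 1.3 ± 0.0973% of unscaled counts (SD, n = 3 and 4), so that LAC was the higher on CPM alone. In ID6 and ID4 they were 29925 ± 911 (n = 6) and 27891 ± 2113 TPM (n = 4), the reverse of their order on CPM. The 13 mitochondrial-genome members summed to 38973, 46225, 48525 and 48998 CPM in the NUL libraries. ID6 gave the lowest levels, from 28312 to 40160 CPM with a median of 35238, and 3 of its 6 libraries (ID6_201, ID6_209 and ID6_216, at 28312 to 34550 CPM) were those with short fragments. The short-fragment ID8 library also stood low, at 34106 CPM against 45198 and 47766 in the other ID8 libraries, but REG_203 was at 34409 CPM with fragments of 262 bases. Between genes, the median SD of log2 CPM over the 27 libraries was 0.152 for the 86 nuclear members with a mean above 5 CPM, 0.308 for the 13 mitochondrial-genome members and 0.179 for the 9363 tested genes above that level. Sdhd, an anchor subunit of complex II, varied least (SD 0.088), and mt-Cytb, the cytochrome b of complex III, varied most among the 13 mitochondrial-genome members (0.393).

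**Figure D1:**
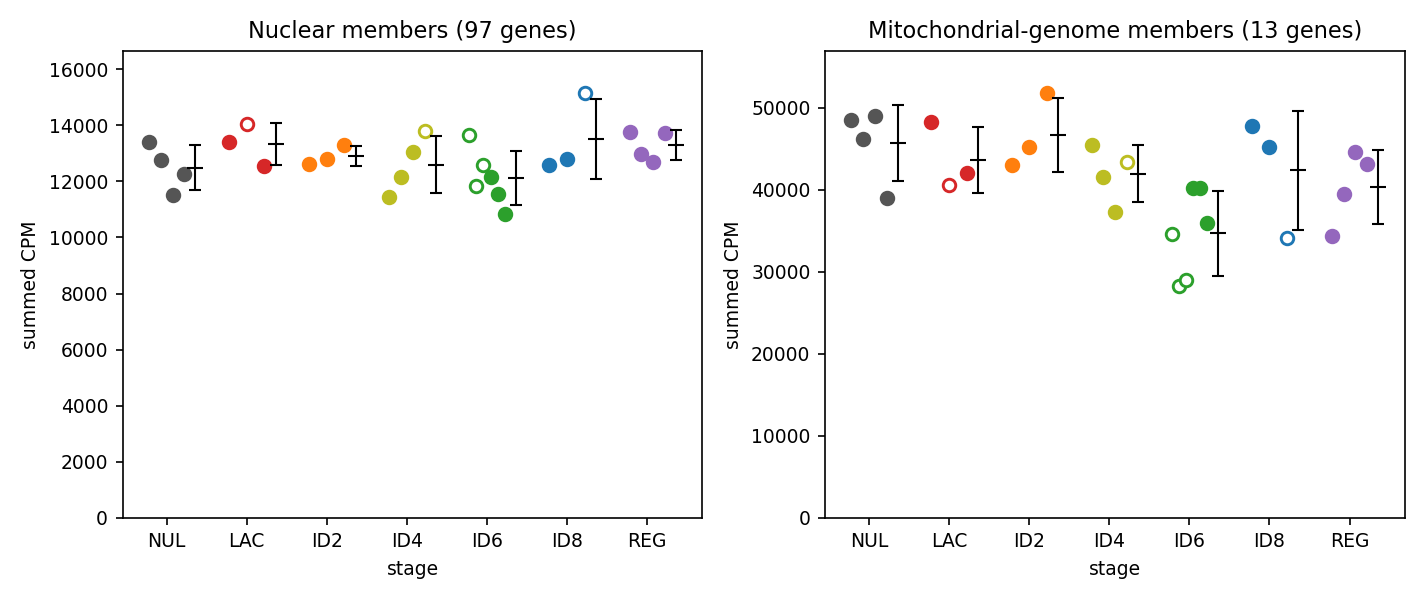
Summed CPM of the 97 nuclear members (left) and the 13 mitochondrial-genome members (right) at each stage. Each circle is 1 library, open circles are libraries with fragments under 250 bases, and the black bar gives mean and SD. The nuclear sums and the mitochondrial sums each overlap NUL at every stage, and the lowest mitochondrial sums, 28312 and 28952 CPM, belong to ID6.

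Levels between genes are compared here on TPM, which allows for gene length. Atp5b, the catalytic beta subunit of the ATP synthase, led the nuclear members with a mean of 2593 TPM over all libraries, followed by Cox6a1, a small subunit of complex IV, at 1347 TPM. Among longer mitochondrial-genome members, mt-Co1, the catalytic core of complex IV, averaged 15122 TPM and mt-Nd5, a proton-pumping subunit of complex I, 1422 TPM. The value of mt-Atp8, 46047 TPM, rests on a transcript shorter than the fragments sequenced, so its length correction is large. Of the 110 members 103 passed the filter on low counts. The 7 that did not were the muscle or testis isoforms Cox6a2, Cox7b2, Cox8b and Cox8c and the processed copies Ndufa11b, Ndufs6b and Cox6c2. Their highest count in any library was 11, for Cox8b, and Ndufa11b, Cox7b2 and Cox8c had a count of 0 in all 27.

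Over all 7 stages, 14 of the 103 tested members (13.6%) differed by edgeR's quasi-likelihood test at a Benjamini-Hochberg adjusted p under 0.05, where 27% of all 16428 genes tested did. They were 9 of 90 nuclear members and 5 of 13 mitochondrial-genome members. The nuclear ones were Atp5s, Cox7a1, Ndufaf7, Ndufaf3, Ndufb6, Cox6b2, Sdha, Cox7a2 and Uqcrc1, and the others were mt-Nd6, mt-Cytb, mt-Co1, mt-Nd4 and mt-Nd1. Of the 75 nuclear subunits, counted apart from assembly factors, tissue isoforms, processed copies, Cox7a2l and Atp5s, 4 were among them. The members that moved furthest between stages, Cox7a1 and Atp5s, were both scarce ones.

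**Figure D2:**
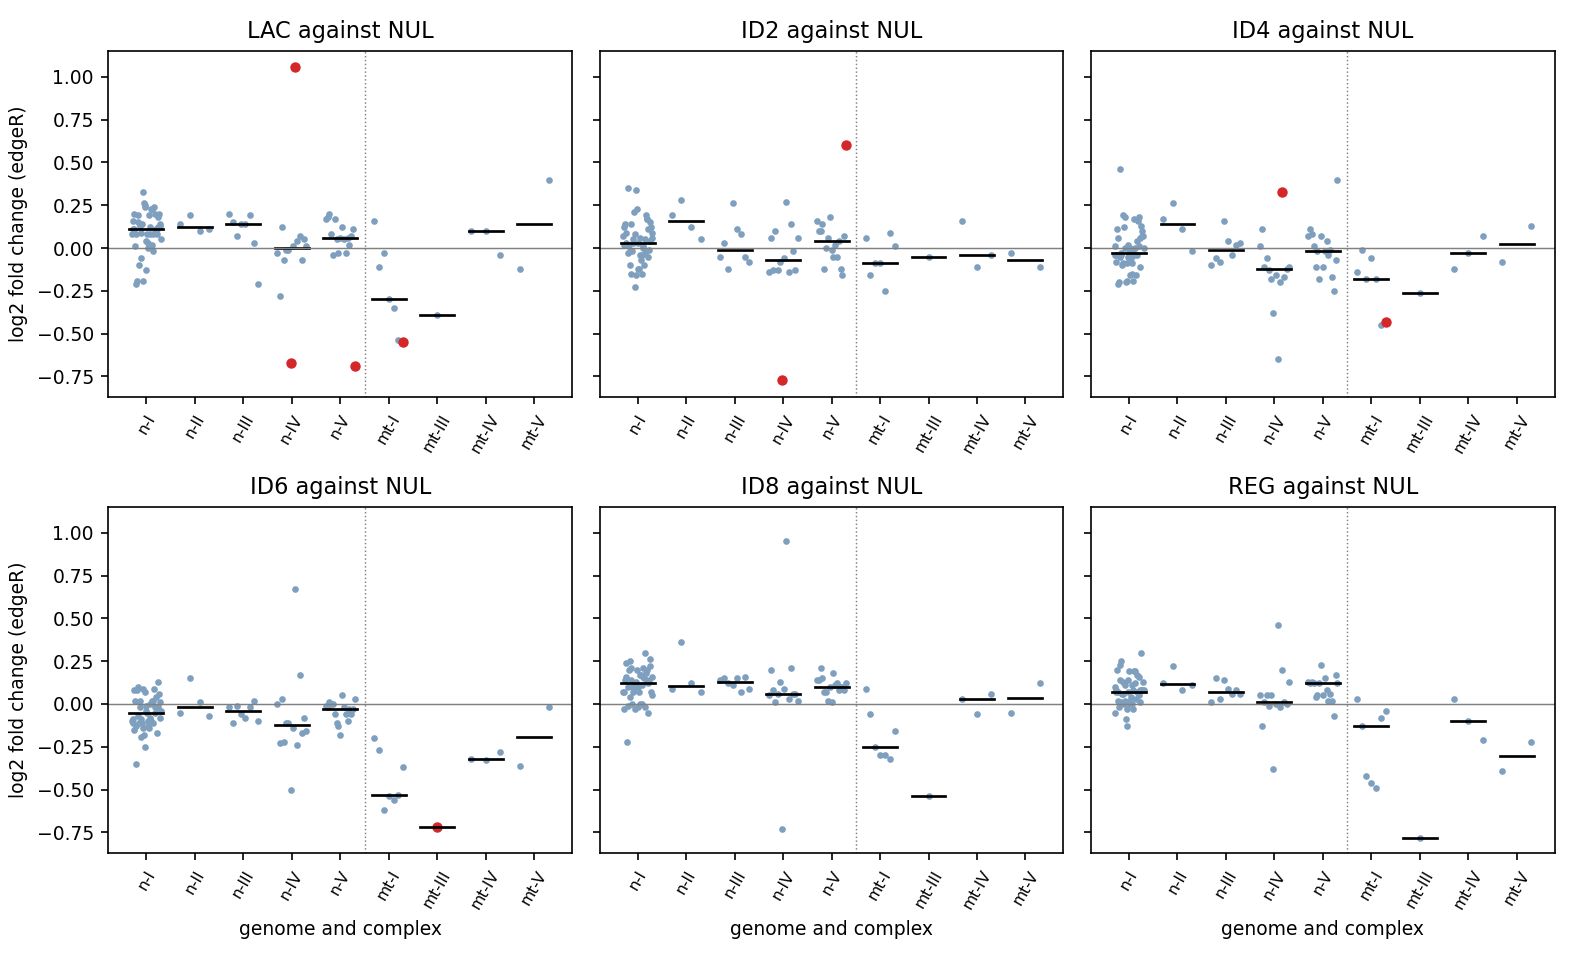
Log2 fold change of each tested member against NUL at 6 stages, by genome (n for nuclear, mt for mitochondrial) and complex. Each point is 1 gene, red points passed edgeR's test at an adjusted p under 0.05, and black lines are medians. Most nuclear points lie near 0 at every stage, and all 13 mitochondrial-genome points lie below 0 in ID6.

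LAC against NUL asks what lactation does to the liver. Here 4 of 103 members (3.88%) passed, against 11.2% of all genes tested: Cox7a1 rose, and Atp5s, Cox6b2 and mt-Nd6 fell. No subunit of complexes II or III passed. Marker sums of other cell types also stood apart from NUL in LAC without overlap. They were lower for Kupffer cells (235 to 335 CPM in LAC, 348 to 448 in NUL), sinusoidal endothelium (lowest 185 in LAC, lowest 238 in NUL), stellate cells (155 to 166 in LAC, 202 to 264 in NUL), bile duct (21.4 to 27.9, 33.9 to 47.2) and lymphocytes (5.81 to 9.28, 11.2 to 14.2). Red cell markers were higher (768 to 1016, 335 to 712). Each of these markers was found in every library, and their part in the LAC results was not tested. Of the 90 nuclear members 70 had a positive and 20 a negative log2 fold change, with a median of 0.09 beside -0.01 for all genes tested. This lean was not kept on the log2(TPM + 1) scale, where 38 were positive and 52 negative with a median of -0.02 beside -0.05.

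Cox7a1 is the heart and muscle isoform of a small complex IV subunit, and its sister Cox7a2 is the form common in liver (Cox7a1, ENSMUSG00000074218, chr7:30184144-30186078, plus strand). It measured 0.945, 1.03, 1.37 and 1.66 CPM in NUL and 2.47, 2.6 and 2.75 CPM in LAC. All LAC libraries were above all NUL libraries, with a log2 fold change of 1.06 ± 0.27 (SE) and an edgeR adjusted p of 0.0104. Cox7a1 was at 0.426 to 1.11 CPM in ID4 and at 1.64 to 3.18 CPM in ID6, again without overlap (log2 fold change 1.32 ± 0.24, edgeR adjusted p = 0.00119). In ID8 it measured 2.13, 2.38 and 2.8 CPM and lay above every NUL library, but the difference from NUL did not pass (log2 fold change 0.95, edgeR adjusted p = 0.112, DESeq2 adjusted p = 0.0423). As a share of the TPM of Cox7a1 and Cox7a2 together, Cox7a1 took 4.48 ± 1.41% in NUL (SD, n = 4), 8.33 ± 0.845% in LAC (n = 3), 3.14 ± 1.22% in ID4 (n = 4) and 7.7 ± 1.6% in ID6 (n = 6). Cox7a2 itself ran from 58.5 to 92 CPM over all libraries and was called only in the joint test (edgeR adjusted p = 0.0423). Skeletal muscle markers (Acta1, Ckm, Myh4 and Tnnt3) were all at 0 in the LAC libraries, and in ID6 they summed to 0.0139 to 6.99 CPM. In ID8 they summed to 0.0947 to 0.984 CPM and in NUL to 0 to 0.0159, without overlap. Their part in the Cox7a1 values of ID6 and ID8 was not tested.

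The 300 bases around the Cox7a1 start site are shown because this member had the largest change against NUL (RefSeq, GRCm38.p6, chr7:30183921-30184220, plus strand, from 250 bases before the start site). None of the 4 motifs searched occurs in this window, so it has no capitals.
Cox7a1 promoter: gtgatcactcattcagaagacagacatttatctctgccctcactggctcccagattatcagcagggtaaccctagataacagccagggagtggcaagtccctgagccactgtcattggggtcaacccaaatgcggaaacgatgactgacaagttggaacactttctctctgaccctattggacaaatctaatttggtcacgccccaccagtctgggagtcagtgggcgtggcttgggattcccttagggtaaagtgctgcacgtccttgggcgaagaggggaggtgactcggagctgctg

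The motifs were NRF1 (the stretches in capitals in the window printed for Sdha), ETS (CCGGAAG), YY1 (AAGATGGC) and the E-box (CACGTG), each searched on both strands. Of the 97 nuclear members 76 had such a window. NRF1 letters were in 25% of these and in 7.17% of the windows of 17491 protein-coding genes, ETS letters in 23.7% and 12.9%, YY1 letters in 14.5% and 3.57%, and E-boxes in 7.89% and 8.91%. A match describes the letters and shows no binding.

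Atp5s encodes a protein named coupling factor B, which RefSeq lists as Dmac2l (ENSMUSG00000054894, chr12:69724950-69744660, plus strand). It measured 3.27, 3.7, 4.01 and 4.22 CPM in NUL, 2.14, 2.22 and 2.7 CPM in LAC, and 4.91, 6 and 6.39 CPM in ID2. The 3 groups did not overlap. LAC was lower than NUL by a log2 fold change of -0.69 ± 0.17 (edgeR adjusted p = 0.00746), ID2 was higher than NUL by 0.60 ± 0.16 (edgeR adjusted p = 0.0362), and ID2 was higher than LAC by 1.29 ± 0.18 (edgeR adjusted p = 2.59e-05). In ID4 it lay at 4.56 to 5.45 CPM, above every NUL library but not called (log2 fold change 0.40, edgeR adjusted p = 0.139). The ID6, ID8 and REG libraries ran from 2.92 to 5.15 CPM. The difference of ID2 from NUL was lost without NUL_220, NUL_226 or NUL_227 or ID2_39 or ID2_224 (edgeR adjusted p 0.0635 to 0.194), and without the count filter, with the effective length offset, on both TPM scales and with the title number covariate (adjusted p 0.0589 to 0.175). The differences of LAC from NUL and ID2 from LAC held in each of these fits. Its promoter window (RefSeq, GRCm38.p6, chr12:69724695-69724994, plus strand) is shown as that of the member with the smallest p-value, and it too holds none of the 4 motifs.
Atp5s promoter: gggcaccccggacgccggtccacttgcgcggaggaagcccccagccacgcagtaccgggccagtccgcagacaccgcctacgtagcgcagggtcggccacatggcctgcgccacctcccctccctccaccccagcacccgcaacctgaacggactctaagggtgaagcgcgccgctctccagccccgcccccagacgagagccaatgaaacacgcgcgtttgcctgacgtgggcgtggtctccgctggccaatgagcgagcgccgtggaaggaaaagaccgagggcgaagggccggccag

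Cox6b2 is the testis isoform of a complex IV subunit whose common form is Cox6b1 (ENSMUSG00000051811, chr7:4751792-4753094, minus strand). It measured 6.35, 7.22, 9.04 and 10.1 CPM in NUL, 4.54, 4.64 and 6.26 in LAC and 3.76, 4.91 and 5.74 in ID2. NUL was the highest group, with no overlap with LAC or ID2. The log2 fold changes were -0.67 ± 0.20 in LAC (edgeR adjusted p = 0.0287) and -0.77 ± 0.20 in ID2 (edgeR adjusted p = 0.0323). The ID8 libraries, at 4.25, 5.1 and 5.49 CPM, were also below all NUL libraries and did not pass (edgeR adjusted p = 0.0986). Leaving out 1 library ended the LAC call for NUL_220 and NUL_226 and LAC_213 and LAC_240 (edgeR adjusted p 0.0758 to 0.138), and the ID2 call for NUL_220 and NUL_226 and ID2_31 and ID2_39 (0.0861 to 0.215). The LAC call also ended with fragment length as a covariate (edgeR adjusted p = 0.0563) and among libraries of 250 bases or more (0.17). The ID2 call ended with the title number covariate (0.341), the effective length offset (0.0791) and both TPM scales (limma, 0.06 and 0.0608). Cox6b1 ran from 110 to 191 CPM and passed in no comparison.

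**Figure D3:**
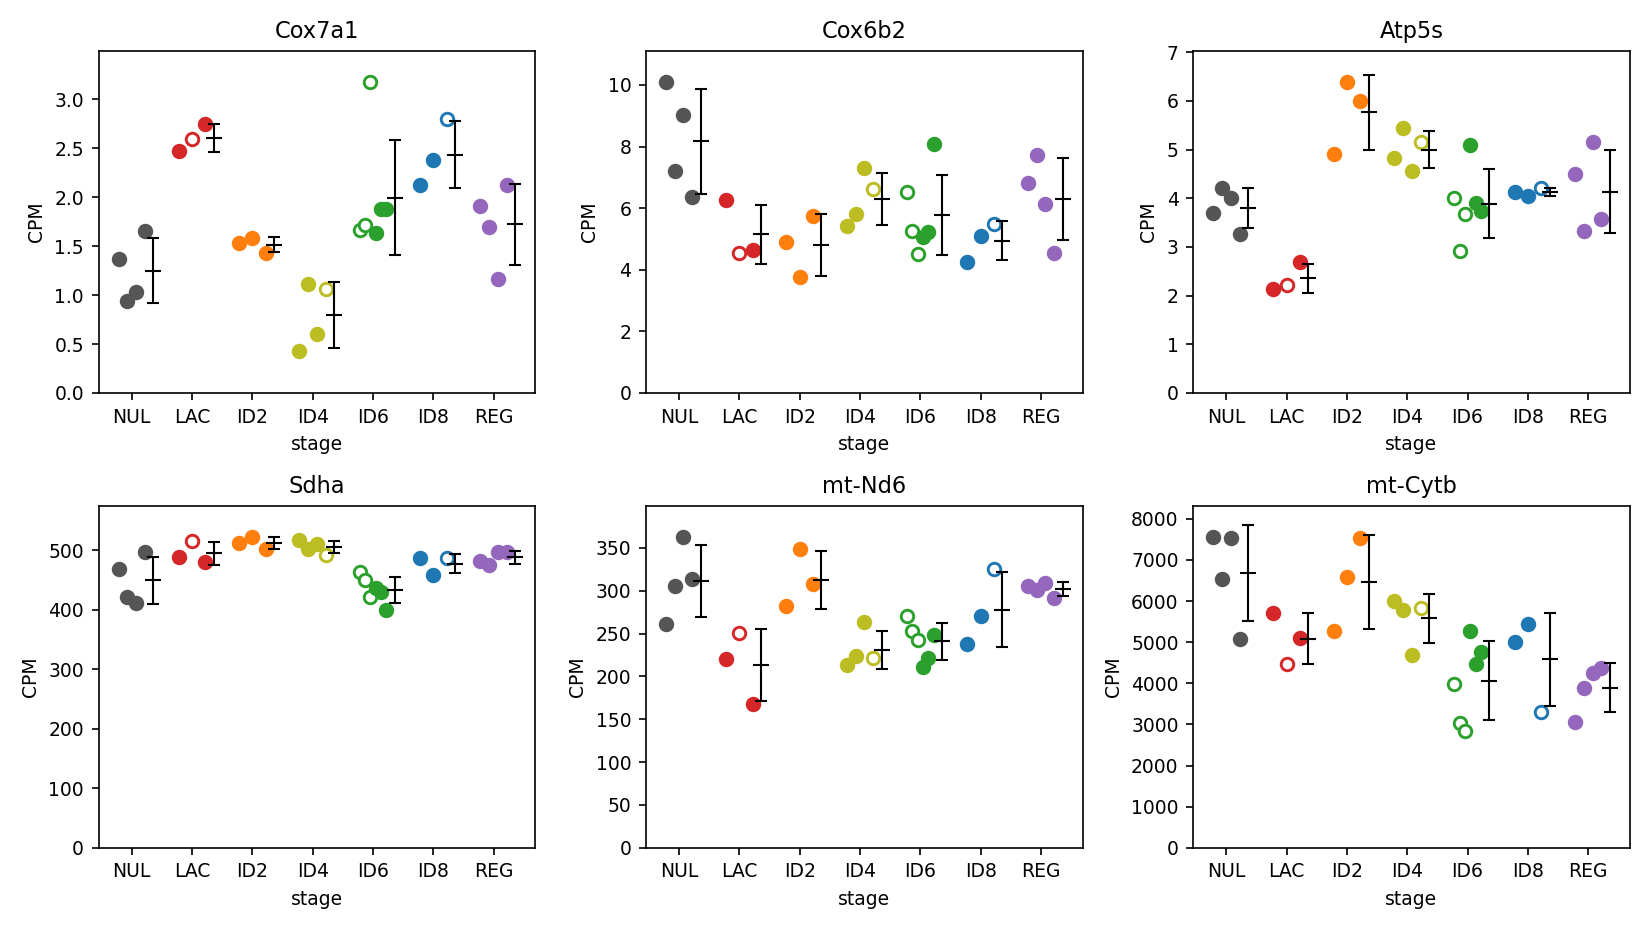
CPM of 6 members in every library by stage. Circles are libraries, open where fragments are under 250 bases, and black bars are mean and SD. Cox7a1 is high in LAC, ID6 and ID8 and low in ID4, Atp5s is lowest in LAC and highest in ID2, and mt-Cytb lies between 2851 and 4380 CPM in REG and in the 3 short-fragment ID6 libraries.

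ID2 against LAC compares the liver just after pups are removed with the lactating liver. Here 5 of 103 members (4.85%) passed, against 16.1% of all genes tested. Atp5s, mt-Nd6 and Ndufaf3 rose, and Ndufb6 and Ndufaf4 fell. Complex I holds 54 of the 103 tested members and 4 of these calls. Alb was lower in ID2 (113939 to 124205 CPM) than in LAC (159800 to 203208) without overlap. Marker sums were higher in ID2 than in LAC, without overlap, for stellate cells (187 to 210 CPM), bile duct (29.8 to 40.6), lymphocytes (9.77 to 12.7) and sinusoidal endothelium (254 to 272). So were those of adipocytes (2.02 to 6.52 CPM in ID2, 0.762 to 1.31 in LAC). The part of Alb and of these markers in these calls was not tested. Ndufaf3 and Ndufaf4 are assembly factors that act together while complex I is built. Ndufaf3 measured 9.76, 10.4 and 11.1 CPM in LAC and 13.3, 13.4 and 14.9 in ID2, without overlap (log2 fold change 0.41 ± 0.11, edgeR adjusted p = 0.0106). Ndufaf4 measured 27.4, 28.6 and 43.8 CPM in LAC and 20, 23.1 and 24.4 in ID2 (log2 fold change -0.57 ± 0.16, edgeR adjusted p = 0.0167). Its LAC value of 43.8 CPM came from LAC_213, a short-fragment library, without which the log2 fold change was -0.32 and the edgeR adjusted p 0.212. The Ndufaf4 call also ended with the title number covariate (edgeR adjusted p = 0.123), with fragment length as a covariate (0.0734) and among libraries of 250 bases or more (0.164). Without ID2_31 the adjusted p of Ndufaf4 was 0.0862, and Ndufaf3 was not called without LAC_200 or ID2_39 (edgeR adjusted p 0.0536 and 0.0584). Ndufb6, a subunit of the membrane arm, measured 65.3, 66.2 and 69.1 CPM in LAC and 45.9, 52 and 56.2 in ID2 (log2 fold change -0.38 ± 0.10, edgeR adjusted p = 0.0103, 0.0762 without ID2_39 and 0.182 with the title number covariate). Its counts were fractional in all 27 libraries, because reads were shared with other genes, and it overlaps Smim27 on the other strand. Ndufaf3 likewise overlaps Impdh2.

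Complex I held 49 nuclear members, of which 47 were tested. In the joint test 3 passed (6.38%, beside 27% of all genes), Ndufaf7, Ndufaf3 and Ndufb6. Ndufaf7, an assembly factor that methylates a subunit, was highest in ID2, at 19.5, 19.7 and 22.6 CPM, and lowest in ID6, at 11.6 to 15.5 CPM with a median of 13.7 (joint edgeR adjusted p = 0.00122). The core subunits Ndufs1, which takes electrons through iron-sulfur clusters, and Ndufv1, which binds NADH, passed in no comparison. Their log2 fold changes against NUL ran from -0.05 to 0.20 and from 0.01 to 0.13. Medians of the complex I members against NUL were 0.11 in LAC, 0.03 in ID2, -0.03 in ID4, -0.05 in ID6, 0.12 in ID8 and 0.07 in REG. On the log2(TPM + 1) scale they were 0.02, -0.03, -0.12, -0.00, 0.04 and 0.09. Without ID8_101b, whose nuclear complex I sum of 4020 CPM stood above 3402 and 3477 in the other ID8 libraries, the ID8 median was 0.05. With only libraries of 250 bases or more it was -0.08 in ID4 and -0.12 in ID6.

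Complex II is the one complex that also works in the citric acid cycle, as succinate dehydrogenase. Sdha, its flavoprotein, measured 492, 503, 511 and 517 CPM in ID4 and 399 to 463 CPM in ID6, with no overlap (log2 fold change -0.22 ± 0.06, edgeR adjusted p = 0.027). Both groups overlapped NUL, whose libraries ran from 412 to 497 CPM. The ID6 and ID4 difference in Sdha was -0.05 on the log2(TPM + 1) scale (limma adjusted p = 0.837), beside a median of 0.07 for all genes. Leaving out ID4_13, ID4_15 or ID4_211 or ID6_232 ended its call (edgeR adjusted p 0.0527 to 0.0827). Of 9 other settings only 3 kept the call. It was lost on both TPM scales, with the effective length offset (edgeR adjusted p = 0.335), with the title number covariate (0.114), without the count filter (0.0828) and among libraries of 250 bases or more (0.071). Sdhb, the iron-sulfur subunit, ran from 159 to 290 CPM and passed in no comparison. The Sdha window (RefSeq, GRCm38.p6, chr13:74350191-74350490, minus strand) is shown because it holds 3 matches to the NRF1 letters, in capitals, which begin at positions -98, -55 and -10 from the start site.
Sdha promoter: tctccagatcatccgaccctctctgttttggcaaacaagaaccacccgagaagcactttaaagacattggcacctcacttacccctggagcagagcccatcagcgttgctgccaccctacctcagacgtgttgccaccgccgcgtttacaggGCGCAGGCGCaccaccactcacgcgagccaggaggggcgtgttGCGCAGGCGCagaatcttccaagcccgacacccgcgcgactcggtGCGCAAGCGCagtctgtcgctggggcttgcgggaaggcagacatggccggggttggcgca

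Among complex III members, Uqcrc1, a core subunit, passed in the joint test (edgeR adjusted p = 0.0476). It was at 298, 301 and 322 CPM in ID2 and at 225 to 272 CPM in ID6. Uqcrfs1, the Rieske iron-sulfur protein, had log2 fold changes against NUL of -0.04 to 0.19 and passed in no comparison.

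Complex IV has tissue isoforms for several subunits, and the forms common in liver were the abundant ones. Cox4i1 had log2 fold changes against NUL of -0.14 to 0.05, Cox5a of -0.13 to 0.12, Cox6a1 of -0.13 to 0.06 and Cox8a of -0.16 to 0.13, and none passed in a comparison. The lung isoform Cox4i2 was scarce, at 0.0274 to 0.22 CPM. Ndufa4, now held to be a complex IV subunit, and its hypoxia-inducible relative Ndufa4l2 (0.362 to 0.794 CPM) passed in no comparison. By their symbols both are counted with complex I in the totals and medians given here. Cox7a2l, which joins complex III to complex IV in supercomplexes, measured 78.8, 79.1, 84.5 and 88 CPM in NUL and 94.4, 102, 106 and 113 in ID4. These groups did not overlap (log2 fold change 0.33 ± 0.09, edgeR adjusted p = 0.0348). The call ended when any 1 of NUL_221, NUL_226 and NUL_227 or ID4_15, ID4_211 and ID4_215 was left out (edgeR adjusted p 0.0609 to 0.104). It ended too without the count filter, with the title number covariate and on both TPM scales (adjusted p 0.0517 to 0.0546).

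In complex V, Atp5a1 and Atp5b, the alpha and beta subunits of the catalytic head, passed in no comparison. Their log2 fold changes against NUL ran from -0.01 to 0.17 and from -0.02 to 0.18. All 17 nuclear complex V members had a positive log2 fold change in ID8 (median 0.10), 16 of 17 in REG (median 0.12), and none passed there. On the log2(TPM + 1) scale 10 of 17 were positive in ID8 (median 0.01) and 16 of 17 in REG (median 0.08). The ID8 lean rested on ID8_101b, where nuclear complex V summed to 5645 CPM against 4609 and 4603 in the other ID8 libraries. Without ID8_101b 8 of 17 were positive (median -0.01). This library had both short fragments and the lowest total count, and the part of either was not tested.

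ID4 against NUL gave 2 of 103 members (1.94%), Cox7a2l upward and mt-Nd6 downward, against 4.25% of all genes tested. Kupffer cell markers summed to 595 to 652 CPM in ID4 and 348 to 448 in NUL without overlap, and their part in the ID4 results was not tested. ID2 against NUL gave 2, Atp5s and Cox6b2, against 3.24%. ID6 against NUL gave 1, mt-Cytb, against 1.08%. ID8 against NUL gave 0 by edgeR, against 0.499% of all genes tested, with 8 members at an unadjusted p under 0.05 (12.8% of all genes) and 2 (Cox7a1 and Cox6b2) called by DESeq2 (1.43% of all genes). REG against NUL gave 0 by edgeR, against 0.0852%, with 8 at an unadjusted p under 0.05 (7.17% of all genes) and 1 (mt-Cytb) called by DESeq2 (0.421% of all genes). ID6 against ID4 gave 5 (4.85%), against 8.53% of all genes tested: Cox7a1 rose, and Sdha, mt-Co3, mt-Nd4 and Ndufaf2 fell. Red cell markers summed to 53.1 to 264 CPM in ID6 and 407 to 1027 in ID4, without overlap, and their part in these calls was not tested. Ndufaf2, a complex I assembly factor named after its values were seen, measured 8.23 to 10.1 CPM in ID6 and 9.3 to 12.4 CPM in ID4 and overlapped (log2 fold change -0.29 ± 0.09, edgeR adjusted p = 0.0456). Its call ended without any 1 of 3 ID4 libraries (ID4_13, ID4_211 and ID4_215) or 5 ID6 libraries (ID6_201, ID6_216, ID6_218, ID6_230 and ID6_232), with edgeR adjusted p of 0.0583 to 0.188. It ended too in 5 of 9 other settings: without the count filter (0.0968), with the effective length offset (0.0555), among libraries of 250 bases or more (0.186) and on both TPM scales (limma, 0.187 and 0.188). On the log2(TPM + 1) scale limma called 4 members in ID6 against ID4, all upward (Cox7a1, Cox5a, Atp5mpl and Atp5l), in place of 1 upward and 4 downward. The median log2 fold change of all genes was 0.07 on that scale and 0.01 in the main fit.

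The mitochondrial genome lies on chrM, where 12 of the 13 protein-coding members are read from the plus strand and mt-Nd6 from the other. Several neighbours share bases, and counts of such pairs depend on how reads were divided: mt-Atp8 with mt-Atp6 (43 bases) and mt-Nd4l with mt-Nd4 (7 bases). These junctions are shown because the counts of these 4 members rest on them, with the shared bases in capitals (GENCODE release 21, GRCm38, plus strand, chrM:7897-7999 and chrM:10137-10203).
mt-Atp8 into mt-Atp6: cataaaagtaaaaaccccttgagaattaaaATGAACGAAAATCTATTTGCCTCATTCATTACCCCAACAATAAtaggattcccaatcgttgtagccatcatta
mt-Nd4l into mt-Nd4: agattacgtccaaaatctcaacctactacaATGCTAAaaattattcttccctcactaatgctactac

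In ID6 all 13 mitochondrial-genome members had a lower fitted level than in NUL, with a median log2 fold change of -0.36 beside -0.05 for the nuclear members and 0.00 for all genes tested. With only libraries of 250 bases or more all 13 were still lower, but the median was -0.23, beside -0.12 for the nuclear members. That restriction kept NUL_227, with fragments of 251.7 bases and the lowest mitochondrial sum in NUL. Genes of the same strand share transcripts, so the counts that follow are not of 13 separate observations. Summed, the 13 ran from 28312 to 40160 CPM in ID6 and overlapped NUL, at 38973 to 48998 CPM. Of the 13, 10 had an unadjusted p under 0.05, beside 11.9% of all genes tested. DESeq2 called 6, beside 2.57% of all genes, and edgeR called 1, beside 1.08%. That one was mt-Cytb (chrM:14145-15288). It measured 5083, 6537, 7540 and 7565 CPM in NUL, and 2851, 3040, 3975, 4465, 4764 and 5282 CPM in ID6. The ranges met only where the highest ID6 library passed the lowest NUL library, NUL_227 (log2 fold change -0.72 ± 0.16, edgeR adjusted p = 0.0215). The 3 lowest ID6 values came from the short-fragment libraries. With only libraries of 250 bases or more the log2 fold change of mt-Cytb was -0.47 (edgeR adjusted p = 0.279), and with fragment length as a covariate it was -0.62 (adjusted p = 0.0145). Without 1 library the call ended for NUL_220, NUL_221 and NUL_226 and ID6_216 (edgeR adjusted p 0.058 to 0.0827), and it ended on both TPM scales (limma adjusted p 0.0521 and 0.0551). Kupffer cell markers, with 6 of 6 found and none at 0, summed to 478 to 764 CPM in ID6 and 348 to 448 in NUL, and red cell markers (5 of 5 found, none at 0) summed to 53.1 to 264 CPM in ID6 and 335 to 712 in NUL. Their part in this result was not tested.

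The other mitochondrial-genome members of ID6 had log2 fold changes against NUL of -0.62 (mt-Nd3), -0.56 (mt-Nd4l), -0.54 (mt-Nd4), -0.53 (mt-Nd5), -0.37 (mt-Nd6), -0.36 (mt-Atp6), -0.33 (mt-Co2), -0.32 (mt-Co1), -0.28 (mt-Co3), -0.27 (mt-Nd2), -0.20 (mt-Nd1) and -0.02 (mt-Atp8). With only libraries of 250 bases or more these 12 ran from -0.46 (mt-Nd6) to -0.04 (mt-Co2), with mt-Nd5 at -0.22, and none passed (edgeR adjusted p 0.149 to 0.97). Against ID4, mt-Co3, a core subunit of complex IV, fell in ID6. It measured 2317, 2417, 2620 and 2655 CPM in ID4 and 1706 to 2180 CPM in ID6, without overlap (log2 fold change -0.35 ± 0.11, edgeR adjusted p = 0.0346). The complex I subunit mt-Nd4 fell too, from 5222 ± 651 CPM in ID4 (SD, n = 4) to 3741 ± 702 in ID6 (n = 6), with overlap (log2 fold change -0.48 ± 0.14, edgeR adjusted p = 0.0308). Both calls ended without ID4_13, ID4_15 or ID4_215 or ID6_209 or ID6_216 (edgeR adjusted p 0.0553 to 0.13), and among libraries of 250 bases or more (-0.27 for each, edgeR adjusted p 0.236 and 0.318). Both ended on the log2(TPM + 1) scale (limma adjusted p 0.16 and 0.125), and that of mt-Nd4 with the title number covariate (edgeR adjusted p = 0.104).

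mt-Nd6, the complex I subunit on the other strand (chrM:13552-14070), was lowest in LAC. It measured 261, 306, 314 and 363 CPM in NUL, 168, 220 and 251 in LAC, 282, 308 and 349 in ID2, and 231 ± 22.4 in ID4 (SD, n = 4, highest 263). LAC lay below NUL and ID2 with no overlap, while 1 ID4 library passed the lowest NUL library. Log2 fold changes were -0.55 ± 0.13 for LAC against NUL (edgeR adjusted p = 0.00483), 0.56 ± 0.13 for ID2 against LAC (edgeR adjusted p = 0.00549) and -0.43 ± 0.12 for ID4 against NUL (edgeR adjusted p = 0.0288). The first was lost without LAC_240 (edgeR adjusted p = 0.0567), and the ID4 call without any 1 of 3 NUL libraries (NUL_221, NUL_226 and NUL_227) or 3 ID4 libraries (ID4_13, ID4_15 and ID4_215), with edgeR adjusted p of 0.057 to 0.119, or with the title number covariate (0.123). ID8 and REG libraries, at 238 to 325 and 291 to 309 CPM, overlapped NUL. mt-Nd6 shares 14 bases with mt-Nd5 on the opposite strand and the use of strand in counting is not given in the sources used here, so reads from its antisense RNA cannot be told apart. Its neighbour mt-Nd5 had log2 fold changes of -0.54 in LAC, 0.09 in ID2 and -0.45 in ID4 against NUL and was not called (edgeR adjusted p 0.141, 0.888 and 0.246). Alb was higher in LAC than in NUL, as given above, and its part in the LAC results was not tested.

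In REG, 4 weeks after weaning, mt-Cytb measured 3054, 3878, 4257 and 4380 CPM, below every NUL library. The log2 fold change was -0.78 ± 0.18, with an unadjusted p of 0.000213, an edgeR adjusted p of 0.0929 and a DESeq2 adjusted p of 0.00515. None of the REG libraries had short fragments, and with only libraries of 250 bases or more the value was -0.79 (edgeR adjusted p = 0.0248). In ID8 mt-Cytb was at 3310, 5008 and 5441 CPM and overlapped NUL (log2 fold change -0.54, edgeR adjusted p = 0.238). The median of the 13 members against NUL was -0.21 in REG, -0.06 in ID8, -0.05 in ID2, -0.12 in ID4 and -0.11 in LAC.

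Within the plus strand, members far along the genome were lower relative to NUL than those near its start at every stage but ID2, a pattern described after the values were seen. Over the 12 genes from mt-Nd1 (chrM:2751-3707) to mt-Cytb, Spearman's rho of genome order and log2 fold change against NUL was -0.78 in LAC, -0.80 in ID6, -0.78 in ID8, -0.68 in REG, -0.52 in ID4 and -0.01 in ID2. These comparisons share the 4 NUL libraries, and the genes share transcripts and overlapping reads, so the values are a description of these libraries. mt-Nd1 differed from NUL by 0.16, 0.06, -0.14, -0.20, 0.09 and 0.03 in LAC, ID2, ID4, ID6, ID8 and REG, and passed in none of them. Counts of mt-Cytb over those of mt-Nd1 in the same library, which no scaling between libraries touches, were 1.66 to 2.12 in NUL (median 1.98). They were 1.18 to 1.49 in LAC, 1.6 to 1.96 in ID2, 1.64 to 1.86 in ID4, 1.07 to 1.66 in ID6, 1.05 to 1.45 in ID8 and 0.892 to 1.22 in REG. LAC, ID8 and REG lay wholly below NUL, ID6 met it at its edge, and ID2 and ID4 overlapped it. With only libraries of 250 bases or more the rho values were -0.88, -0.77, -0.78, -0.68, -0.43 and -0.01 in LAC, ID6, ID8, REG, ID4 and ID2, and the ratios were 1.31 to 1.49 in LAC, 1.22 to 1.45 in ID8 and 1.28 to 1.66 in ID6. Red cell markers summed to 19.9 to 35 CPM in ID8 against 335 to 712 in NUL without overlap. Higher in ID8, also without overlap, were sinusoidal endothelium markers (275 to 279 CPM, 238 to 272 in NUL) and skeletal muscle markers (0.0947 to 0.984, 0 to 0.0159). Alb was higher too (99708 to 105130 CPM, 74654 to 98164 in NUL). The part of all these in the ID8 results was not tested.

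**Figure D4:**
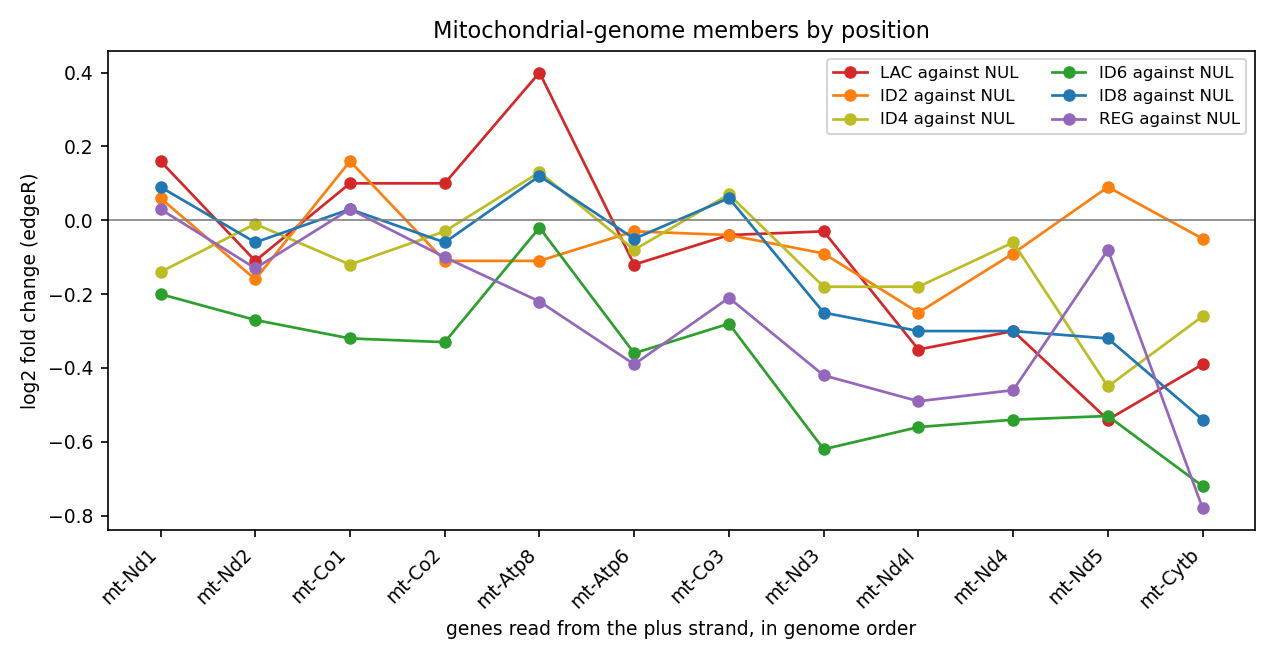
Log2 fold change against NUL of the 12 plus-strand mitochondrial-genome members, in genome order from mt-Nd1 to mt-Cytb, with 1 line per stage. mt-Nd1 lies between -0.20 and 0.16 at all 6 stages, and mt-Cytb reaches -0.72 in ID6 and -0.78 in REG while ID2 stays near 0.

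**Figure D5:**
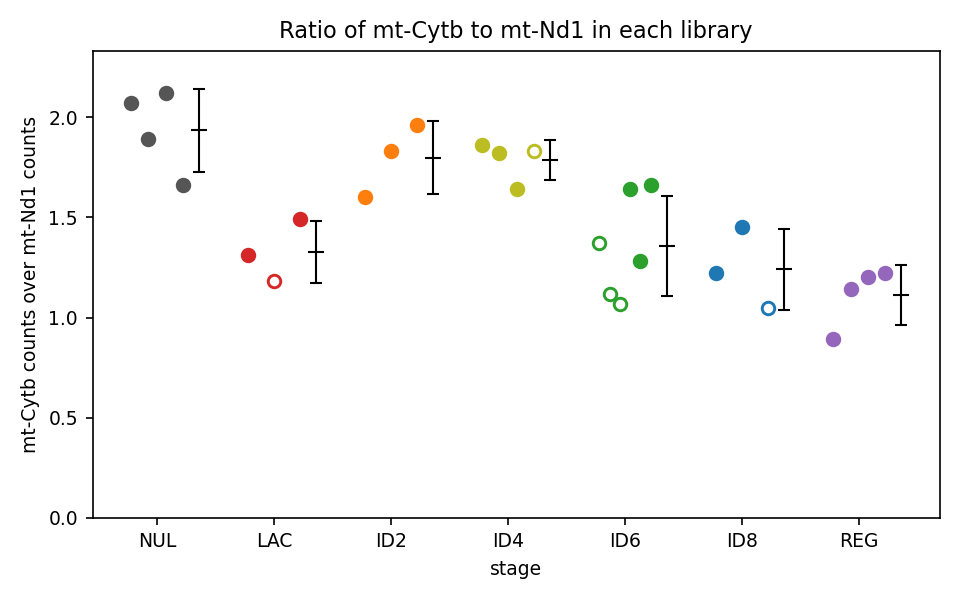
Expected counts of mt-Cytb over those of mt-Nd1 in each library by stage. Circles are libraries, open where fragments are under 250 bases, and black bars are mean and SD. NUL lies at 1.66 to 2.12 and REG at 0.892 to 1.22.

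Other genes that serve the chain were read from the same fit. Of 11 nuclear regulators of respiratory genes 3 passed the joint test, against 27% of all genes tested: Ppargc1a and Ppargc1b, the PGC-1 coactivators, and Sirt3, a mitochondrial deacetylase. Ppargc1a was at 4.34 to 7.99 CPM in NUL, 4.66 to 6.46 in LAC and 11.4, 11.5 and 11.9 in ID2, where no library overlapped NUL or LAC (log2 fold change 1.03 against NUL, edgeR adjusted p = 0.0142). Clock genes, which follow the time of day, summed to 238 to 347 CPM in ID2 and 156 to 199 in NUL without overlap. A sum over 11 genes does not give the time of day, and overlap at another stage does not show matched times. Dbp alone ran from 0.594 to 42.8 CPM over all libraries. The part of clock genes in this and the other ID2 results was not tested. Of 22 genes for mitochondrial DNA upkeep, transcription and RNA stability 5 passed (22.7%). Mterf2, a factor of the family that binds mitochondrial DNA, rose in ID2 against NUL by a log2 fold change of 1.34 ± 0.28 (edgeR adjusted p = 0.00634) and against LAC by 1.86 ± 0.31 (edgeR adjusted p = 0.000246). Of 17 electron carriers and ubiquinone genes, with Cyc1 of complex III, 8 passed the joint test (47.1%). Coq3, a methyltransferase of ubiquinone synthesis, fell in ID6 against NUL by 0.54 on the log2 scale (edgeR adjusted p = 0.000514) and against ID4 by 0.38 (edgeR adjusted p = 0.00613).

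Of 41 assembly factors outside the symbol rule 8 passed the joint test (19.5%, again beside 27% of all genes). Acad9, needed to build complex I, rose against NUL in LAC, ID2 and ID4, by 0.35, 0.44 and 0.33 (edgeR adjusted p = 0.00941, 0.00457 and 0.0167), and fell from ID4 to ID6 by 0.30. Sco2, which delivers copper to complex IV, fell in LAC by 0.58 (edgeR adjusted p = 0.0225) and rose in ID2 against LAC by 0.59 (edgeR adjusted p = 0.0213). Of 13 citric acid cycle genes 7 passed (53.8%). Called genes of this list went both ways against NUL, 1 higher and 1 lower in ID2 and in ID4 alike. Of all genes tested 3.24% were called in ID2 and 4.25% in ID4. In ID2 11 of these 13 genes had a positive log2 fold change (median 0.17, beside -0.02 for all genes tested). Cs, the citrate synthase, fell against NUL in ID2 by 0.35 and in ID4 by 0.44 (edgeR adjusted p = 0.0408 and 0.00362). Fh1, the fumarase, rose in ID2 by 0.60 (edgeR adjusted p = 0.00634), and Suclg2, a subunit of succinyl-CoA ligase, rose in ID4 by 0.32 (edgeR adjusted p = 0.0135). Of 78 mitochondrial ribosome genes 8 passed the joint test (10.3%). Neither of the 2 mitochondrial ribosomal RNAs passed it (0 by edgeR). Both had an unadjusted p under 0.05 (38.9% of all genes) and 1 was called by DESeq2 (34.1% of all genes). From LAC to ID2, mt-Rnr1, the small subunit RNA, fell from 443 ± 55.8 to 249 ± 44.2 CPM (SD, n = 3 each) without overlap (log2 fold change -0.83 ± 0.27, edgeR adjusted p = 0.0403). Whether ribosomal RNA was removed before sequencing is not given in the sources used here, and the part of such a step in this difference was not tested.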

How the data were processed

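Bulk RNA-seq of 27 livers was analysed. Deposited values per gene and library were RSEM expected counts, TPM (transcript abundance corrected for length and depth) and effective lengths, per the file headers. The submitters' processing notes name STAR 2.6.1a, RSEM 1.3.1 and mm10. Trimming, annotation release and use of strand in counting are not given in the sources used here. Nor is it given whether RNA was selected by its poly(A) tail or cleared of ribosomal RNA. Expected counts divide shared reads between genes, and 14 members had fractional counts in every library. 51633 of 51826 identifiers matched GENCODE release 21, which gave symbols and positions.

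Expected counts were rounded, filtered (filterByExpr, 16428 genes kept), scaled by TMM and fitted for all 27 libraries together with edgeR 4.0.16 (R 4.3.3, robust quasi-likelihood, biological coefficient of variation 0.19). The 8 comparisons between stages and a joint test over the 7 stages were each adjusted by Benjamini-Hochberg over all genes tested, with calls at an adjusted p under 0.05. Each NUL comparison uses the same 4 NUL libraries. CPM are TMM-scaled. Fragment length is length minus effective length of long genes. No replicate pair agreed within sampling noise (lowest chi-square per gene 45.8). Scripts were tested on simulated data.

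Members and lists were chosen with earlier results of these data known. Named with values were the mitochondrial-genome members, called members whose groups did not overlap, 2 fixed subunits per nuclear complex, and tissue isoforms. From the other pathway lists, up to 3 called genes were named. Alternatives were DESeq2 1.42.0, no count filter, an effective length offset, scaling without mitochondrial and the 20 most abundant genes, limma 3.58.1 on log2(TPM + 1) and log2(TPM + 0.1), the title number range as a covariate, an adjusted p under 0.01, and each library left out. The fragment length covariate and the restriction to fragments of 250 bases or more were chosen after seeing the data.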

Additional observations from a re-analysis of the deposited data

Results flagged for a closer look

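Within groups of 4 to 6 animals, 168 groups of values (named members, their sums and the ratio of mt-Cytb to mt-Nd1) were searched for 1 library standing far from the rest (Dixon's test at the 95% level), and 10 were found. Chance gives about 1 in 20 groups. In ID4_211, mt-Cytb was 4679 CPM against 5794 to 5996 in the other ID4 libraries, mt-Nd1 was 2857 against 3184 to 3227, and Uqcrc1 was 294.4 against 284 to 285.4. In ID4_215, a short-fragment library, Ndufa4 was 212.5 CPM against 159.1 to 165.6.

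In NUL_227, mt-Nd2 was 2193 CPM against 3003 to 3136 in the other NUL libraries and mt-Nd3 was 233.5 against 377.5 to 390.5. In REG_203, mt-Nd4l was 62.6 CPM against 106.9 to 114.1 and Ndufaf3 was 14.5 against 12.3 to 12.4. In REG_239, Cox6b1 was 161.9 CPM against 151.1 to 152.1. In ID6_216, a short-fragment library, Cox7a1 was 3.18 CPM against 1.64 to 1.88 in the other ID6 libraries.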

How the results depend on the processing

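Counts of called members depended on the settings. At an adjusted p under 0.01 they were 2 for LAC against NUL, 0 for ID2, 0 for ID4 and 0 for ID6 against NUL, 2 for ID2 against LAC, 1 for ID6 against ID4 and 5 in the joint test. DESeq2 gave 6 for ID6, 2 for ID8 and 1 for REG against NUL, 8 for ID2 against LAC, 8 for ID6 against ID4 and 22 jointly, where it called 2.57%, 1.43%, 0.421%, 18.3%, 10.8% and 34.1% of all genes. Without the count filter there was 1 for ID2 and 1 for ID4 against NUL and 3 for ID6 against ID4. For ID2 against NUL the effective length offset, both TPM scales and the title number covariate gave 0. That covariate also gave 0 for ID4, the offset gave 2 for ID6, and both TPM scales gave 0 for ID6, each against NUL. The fragment length covariate gave 3 for ID6 and 1 for REG against NUL and 9 for ID6 against ID4. With fragments of 250 bases or more these were 0, 1 and 1, and the joint count was 8. The cause was not tested.

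Leaving out 1 library at a time gave 2 to 4 calls for LAC (2 without LAC_240), 0 to 2 for ID2, ID4 and ID6, and 0 for ID8 and REG, each against NUL. It gave 3 to 6 for ID2 against LAC (3 without ID2_39), 1 to 7 for ID6 against ID4 (1 without ID4_13) and 9 to 19 jointly (9 without ID2_39). No call turned its direction, but uncalled values did on the TPM scales: the median of nuclear members moved from 0.09 to -0.02 in LAC against NUL and from -0.04 to 0.08 in ID6 against ID4. On log2(TPM + 1), which gave these values, the median of all genes was -0.05 and 0.07 in these comparisons. In the main fit it was -0.01 and 0.01. At an adjusted p under 0.05, over all of these fits, the calls of Atp5s and Cox7a1 in LAC against NUL, of Atp5s and mt-Nd6 in ID2 against LAC and of Cox7a1 in ID6 against ID4 held. On log2(TPM + 0.1) the median of all genes in ID6 against ID4 moved from 0.01 to 0.13. No paired analysis was possible because no replicate number is shared between groups. Groups of 3 to 6 animals limit what can be called, and members under about 5 CPM rest on few counts.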
